A study of Mus musculus with 19 samples.

Results

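Apolipoprotein genes were followed through mouse liver in 3 genotypes and 2 diets. The 10 genes were Apoa1, Apoa2, Apoa4, Apoa5, Apob, Apoc1, Apoc2, Apoc3, Apoe and Apom, taken by symbol from the platform annotation out of 22180 genes with a value. Each had exactly 1 probe set annotated to it alone, so no choice between probe sets was needed. Whole liver was taken from 19 mice, each measured on 1 array. Animals labelled WT, KO or TG had been fed normally (ND, normal diet) or on high fat (HFD, high-fat diet) for 4 weeks and were 2 to 3 months old. There were 3 arrays each for WT ND, KO ND, TG ND, WT HFD and KO HFD, and 4 for TG HFD. The codes stand without explanation in the labels, and the gene Kcp (Kielin/chordin-like protein) is known as the subject only from the title of the series, so that KO and TG are used here as label names. The promoter and cell type driving a transgene, the kind of knockout allele, the strain, the sex and the hour of tissue collection are not given in the sources used here. The replicates have an animal number each and nothing else says that they are independent, so p-values measure the spread between these samples.

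Apolipoproteins are the protein part of lipoproteins, the particles that carry triglyceride and cholesterol through blood. Liver loads Apob with lipid to form very-low-density lipoprotein (VLDL), and releases Apoa1 and Apoa2, which form the body of high-density lipoprotein (HDL). The smaller, exchangeable proteins set how particles are used: Apoc2 activates lipoprotein lipase, Apoc3 and Apoc1 restrain lipolysis and uptake, Apoa5 promotes lipolysis, Apoe binds receptors for uptake of remnants, and Apom carries sphingosine-1-phosphate on HDL. Apoa4, made by the intestine and in rodents also by the liver, is secreted with triglyceride-rich particles.

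Kcp itself stood between 5.35 and 5.81 on the log2 scale in the 7 TG arrays and between 1.64 and 2.82 in the other 12. It was higher in TG than in WT by 3.01 on ND (SE 0.20, adjusted p = 4.54e-08, limma) and by 3.43 on HFD (SE 0.18, adjusted p = 4.05e-09). Kcp did not separate KO from WT past the threshold, with differences of -0.52 on ND (adjusted p = 0.215) and -0.22 on HFD (adjusted p = 0.844), so this probe set does not check the KO label. Pairs of arrays from the same group had correlations of 0.968 to 0.9793 over all 41345 probe sets. The 16 measured hepatocyte markers averaged between 10.51 and 10.86 in every array. The 18 intestinal epithelium markers averaged between 0.93 and 1.27, and the defining genes Vil1, Lct, Sis, Alpi, Cdx1 and Cdx2 were at most 1.34 in any array, beside array medians of 0.98 to 1.07. The 23 measured Kupffer cell and macrophage markers did move with genotype: their mean was 3.75 to 3.84 in WT ND, 4.69 to 5.16 in TG ND, 3.71 to 3.93 in WT HFD and 4.55 to 5.11 in TG HFD, and 14 of them on ND and 15 on HFD were higher in TG than in WT past the threshold, where 1.3% and 3.57% of all genes were called. In KO their mean was 3.72 to 4.11 on ND and 4.08 to 4.38 on HFD, so KO HFD lay above WT HFD in every array.

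Levels of the 10 genes across the 6 groups differed chiefly in 1 gene. The distance between the highest and the lowest group mean was 3.37 on the log2 scale for Apoa4, a 10.3-fold span. It was 0.95 for Apom, 0.70 for Apoc2, 0.61 for Apoa5 and 0.61 for Apoa2. The remaining 5 genes had spans under 0.5, down to 0.03 for Apob. The median span was 0.53 over the 10 genes and 0.43 over all genes with a mean value of at least 2. The median standard deviation within groups was 0.18 for the 10 genes and 0.21 for all 22180 genes. Over the 9 comparisons of 2 groups, the median difference of the 10 genes ran from -0.18 (TG against WT on HFD) to 0.22 (KO against TG on HFD), and that of all genes was 0.00 in each.

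**Figure D1:**
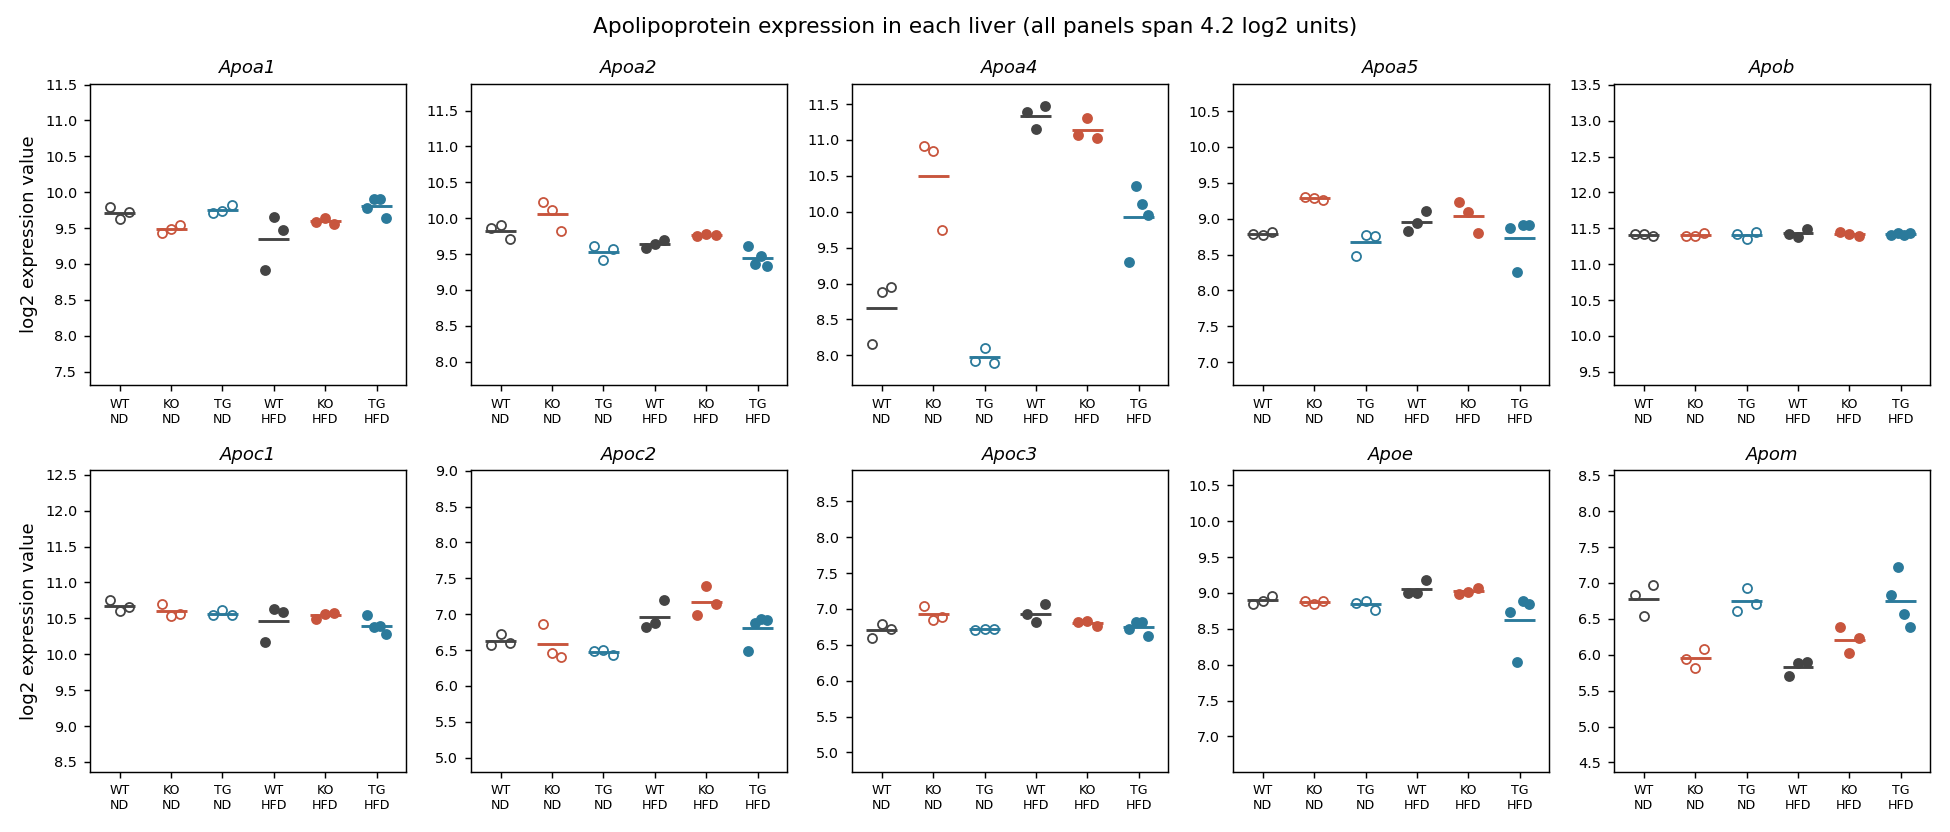
Each panel plots the log2 expression value of 1 apolipoprotein gene in each of the 19 livers, with open points for ND, filled points for HFD and bars at group means. Every panel spans the same number of log2 units, so Apoa4, from 7.90 to 11.48, fills its panel, Apom covers 5.71 to 7.23, and Apob stays between 11.35 and 11.49.

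Apoa4 was lowest in ND-fed TG and WT livers and highest in HFD-fed WT and KO livers. The 3 arrays read 8.16, 8.88 and 8.96 in WT ND and 7.93, 8.10 and 7.90 in TG ND. In KO ND they read 10.92, 10.84 and 9.74. On HFD, Apoa4 read 11.40, 11.15 and 11.48 in WT, 11.07, 11.31 and 11.03 in KO, and 9.30, 10.36, 10.11 and 9.95 in TG. All arrays of WT HFD and KO HFD thus lay above every array of the other 4 groups, and KO ND, although on the normal diet, lay above all WT ND and TG ND arrays. In order of group mean, the levels were 11.34 ± 0.17 (SD, n = 3) in WT HFD, 11.14 ± 0.15 (n = 3) in KO HFD, 10.50 ± 0.66 (n = 3) in KO ND, 9.93 ± 0.45 (n = 4) in TG HFD, 8.67 ± 0.44 (n = 3) in WT ND and 7.97 ± 0.11 (n = 3) in TG ND. Among neighbours in this order, WT HFD and KO HFD overlapped, as did KO ND and TG HFD. TG HFD and WT ND did not overlap and were not compared by a test. Neither KO HFD against KO ND nor WT ND against TG ND passed the threshold.

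Apom, the lipocalin of HDL, had the next widest span. It read 6.83, 6.54 and 6.97 in WT ND, 5.94, 5.82 and 6.09 in KO ND, and 6.61, 6.93 and 6.71 in TG ND. On HFD it read 5.71, 5.88 and 5.90 in WT, 6.38, 6.02 and 6.23 in KO, and 6.84, 7.23, 6.56 and 6.39 in TG. WT HFD and KO ND were the low groups, and every one of their arrays was below every array of WT ND, TG ND and TG HFD. Group means were 6.78 ± 0.22 (SD, n = 3) in WT ND, 6.75 ± 0.37 (n = 4) in TG HFD, 6.75 ± 0.17 (n = 3) in TG ND, 6.21 ± 0.18 (n = 3) in KO HFD, 5.95 ± 0.13 (n = 3) in KO ND and 5.83 ± 0.11 (n = 3) in WT HFD. The first 3 of these overlapped with one another, KO HFD overlapped with KO ND, and KO ND overlapped with WT HFD.

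Apoa4 lies in a run of apolipoprotein genes on chromosome 9, in the order Apoa1, Apoc3, Apoa4 and Apoa5 within 43.3 kb. A second run on chromosome 7 holds Apoc2, Apoc4, Apoc1 and Apoe within 29.7 kb (RefSeq, GRCm38.p6). Promoters are shown for the 3 neighbours on chromosome 9 with an entry, because they share a locus and differ in their values, and for Apom, the other gene with several changes. Each is the 250 bases before the annotated start site, from RefSeq on GRCm38.p6, written 5′ to 3′ on the strand of the gene: chr9:46228380-46228629 on the plus strand for Apoa1, chr9:46240594-46240843 on the plus strand for Apoa4, chr9:46268358-46268607 on the plus strand for Apoa5 and chr17:35131802-35132051 on the minus strand for Apom. Of the 10 genes 8 had a promoter entry, and Apoc1 and Apoc3 had none. Capitals mark matches to the motifs searched.
Apoa1: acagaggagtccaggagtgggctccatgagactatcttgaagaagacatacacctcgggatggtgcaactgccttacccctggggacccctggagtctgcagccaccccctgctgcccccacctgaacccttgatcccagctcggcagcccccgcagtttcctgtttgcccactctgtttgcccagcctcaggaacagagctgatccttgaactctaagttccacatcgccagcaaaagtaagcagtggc
Apoa4: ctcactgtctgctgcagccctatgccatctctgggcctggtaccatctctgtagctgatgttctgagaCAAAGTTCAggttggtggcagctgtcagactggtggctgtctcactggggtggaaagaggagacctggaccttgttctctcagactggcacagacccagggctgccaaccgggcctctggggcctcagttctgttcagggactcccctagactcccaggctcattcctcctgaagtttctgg
Apoa5: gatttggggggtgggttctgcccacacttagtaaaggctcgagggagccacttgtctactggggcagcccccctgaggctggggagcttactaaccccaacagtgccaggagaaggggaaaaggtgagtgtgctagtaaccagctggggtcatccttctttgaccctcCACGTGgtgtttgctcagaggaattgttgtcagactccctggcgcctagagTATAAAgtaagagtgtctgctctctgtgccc
Apom: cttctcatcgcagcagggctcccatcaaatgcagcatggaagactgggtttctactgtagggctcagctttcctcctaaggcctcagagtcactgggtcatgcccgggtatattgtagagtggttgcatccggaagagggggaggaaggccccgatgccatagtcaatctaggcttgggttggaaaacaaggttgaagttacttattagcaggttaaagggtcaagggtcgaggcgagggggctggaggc

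The 5 motifs searched on both strands were AGGTCA, the core hexamer of nuclear receptor sites, CAAAGTNCA, an element of the type bound by HNF4, CACGTG, an E-box, TTATGNAA, a D-box bound by PAR bZIP factors, and TATAAA, the TATA box. Apoa4 held 1 match, the HNF4-type letters 182 to 174 bases before the start, a motif found in 1.19% of the 32851 mouse promoters of the same length. Apoa5 held an E-box 82 to 77 bases before the start, found in 6.02% of promoters, and a TATA box 31 to 26 bases before it, found in 12.4%. Apoa1 and Apom held none of the 5 in this window. The shares for AGGTCA and the D-box were 14% and 3.07% of promoters. A match describes letters only, and binding was not measured here.

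In WT livers, 4 weeks of high-fat diet went with more Apoa4 and less Apom. Apoa4 was 6.38-fold higher on HFD than on ND, a log2 difference of 2.67 (SE 0.29, adjusted p = 5.61e-05, limma with Benjamini-Hochberg adjustment over all genes), and the groups did not overlap. Apom fell by 0.95 on the log2 scale (SE 0.18, adjusted p = 0.00965), to 0.518 of its ND level, also without overlap. In whole liver, fewer cells of a type and less RNA per cell cannot be told apart. In this comparison the arrays of 7 of the 10 genes and of 15.1% of all genes did not overlap. Apoa4 and Apom were the 2 of the 10 genes that passed, against 1.32% of all genes called. The other 8 did not pass. Apoc2, the lipase activator, differed by 0.34 (95% interval 0.01 to 0.66, adjusted p = 0.417) and Apoc3, a brake on lipolysis, by 0.23 (0.02 to 0.45, adjusted p = 0.403). Apoa1, the main HDL protein, differed by -0.36 (-0.67 to -0.06, adjusted p = 0.329). Without WT HFD replicate 1 the Apoa1 difference was -0.15, and without WT HFD replicate 3 that of Apoc2 was 0.22. The Apom call was lost without WT ND replicate 3 (adjusted p = 0.0594) or without WT HFD replicate 1, while the Apoa4 call held without any 1 array (highest adjusted p = 0.000621).

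In TG livers Apoa4 also rose on HFD, by 1.95 (SE 0.27, adjusted p = 0.00078), or 3.87-fold. It was the only 1 of the 10 genes to pass in that genotype, where 0.906% of all genes were called. Apom there differed by 0.00 (95% interval -0.35 to 0.36, adjusted p = 0.997). In KO livers none of the 10 genes passed by limma, against 0.803% of all genes, while 3 had an unadjusted p under 0.05. The share of all genes at that unadjusted threshold was 11.3%. The Apoa4 difference in KO was 0.63 (0.03 to 1.24, adjusted p = 0.409), and 0.25 without KO ND replicate 3. Apoc2 read 6.86, 6.47 and 6.41 in KO ND and 6.99, 7.40 and 7.14 in KO HFD. These arrays did not overlap, as was so for 7 of the 10 genes and 17.1% of all genes in this comparison. The difference of 0.60 (SE 0.15, adjusted p = 0.0818) missed the threshold. It passed without KO ND replicate 1 (adjusted p = 0.0409), with genes below a mean of 2 left out (adjusted p = 0.0416) and with an intensity trend and robust prior (adjusted p = 0.0444). A probe set annotated to both Apoc4 and Apoc2 differed by only 0.08 with diet in KO (SE 0.16, adjusted p = 0.945). Apoa2 differed by -0.29 in KO (-0.53 to -0.04, adjusted p = 0.345).

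The diet effect was tested for a difference between genotypes by an interaction, the HFD minus ND difference in KO or TG less that in WT. For KO, 2 of the 10 genes passed, where 0.825% of all genes did. The Apoa4 diet effect was smaller in KO than in WT by 2.04 on the log2 scale (an interaction of -2.04, SE 0.40, adjusted p = 0.0215). The Apom diet effect was higher by 1.21 (SE 0.25, adjusted p = 0.0305), since Apom was lower on HFD in WT and differed by 0.26 (95% interval -0.12 to 0.64) in KO. Both rest on the same 12 arrays, and single arrays decided them. The Apoa4 call was lost in 7 of 12 fits with 1 of these arrays left out (WT ND replicate 1, KO ND 1 or 2, WT HFD 1 or 3, KO HFD 1 or 3), with a highest adjusted p of 0.0715 in limma. The Apom call was lost in 8 of 12, without any of the same 7 or WT ND replicate 3 (highest adjusted p = 0.0934). The differences themselves stayed between -2.42 and -1.79 for Apoa4 and between 1.12 and 1.33 for Apom. For TG no gene of the 10 passed by limma, where 0.221% of all genes were called, and 1 of the 10 had an unadjusted p under 0.05, beside 7.87% of all genes. The TG interaction was -0.72 for Apoa4 (95% interval -1.54 to 0.10, adjusted p = 0.706) and 0.95 for Apom (0.43 to 1.47, adjusted p = 0.182).

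**Figure D2:**
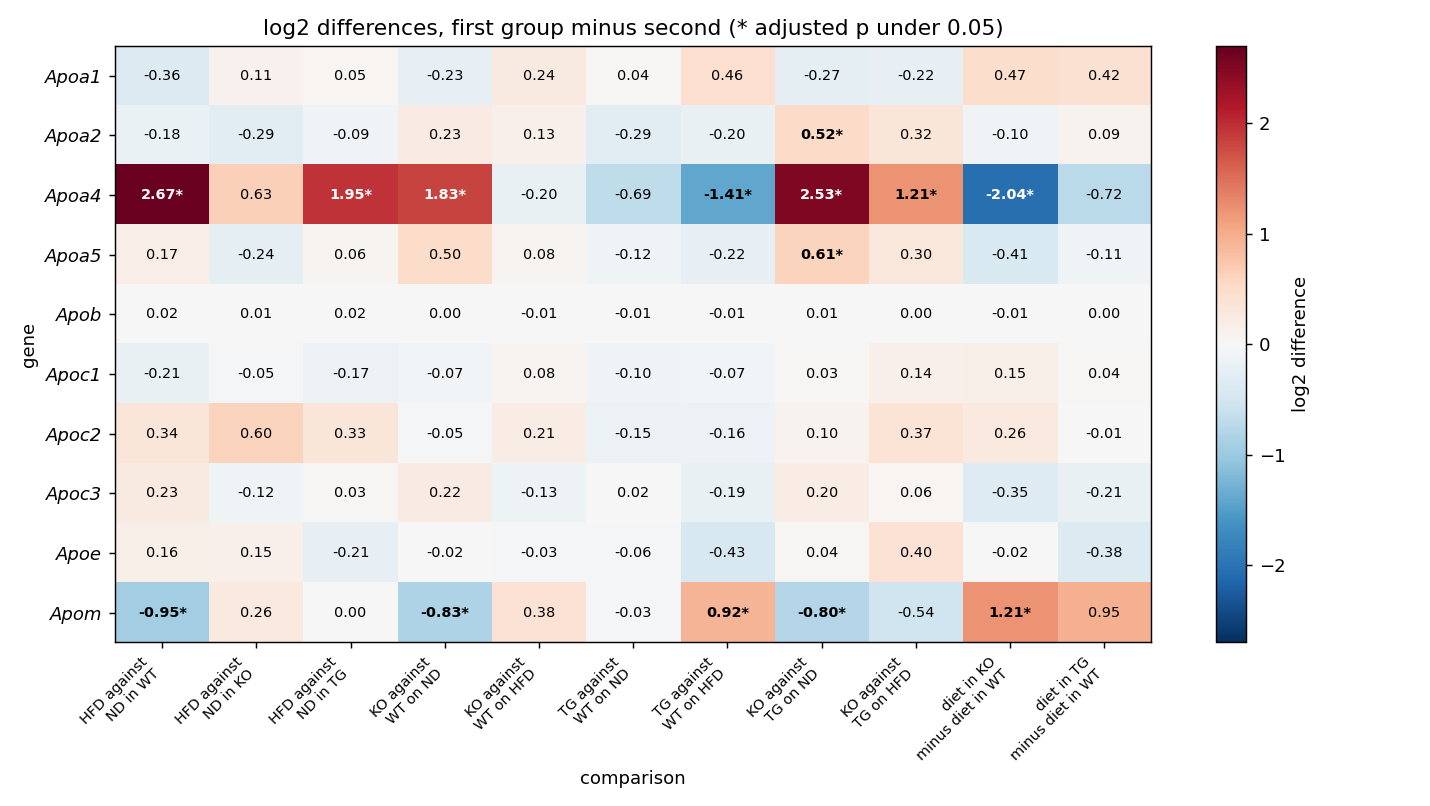
The grid gives the log2 difference of each of the 10 genes in each of 9 comparisons of 2 groups and 2 interactions, first group minus second, with colour for the size and a star for an adjusted p under 0.05. Apoa4 has 7 starred cells and Apom 5, with values as far from 0 as 2.67 for Apoa4 and 1.21 (the KO interaction) for Apom, while 6 genes have none.

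On the normal diet, KO livers had more Apoa4 and less Apom than WT livers. Apoa4 was 3.57-fold higher in KO ND (log2 difference 1.83, SE 0.29, adjusted p = 0.00108) and Apom was at 0.562 of the WT level (log2 difference -0.83, SE 0.18, adjusted p = 0.015), both without overlap. That was 2 of the 10 genes, against 2.98% of all genes. Apoa5, which promotes lipolysis of plasma triglyceride, read 9.31, 9.28 and 9.26 in KO ND and 8.78, 8.77 and 8.81 in WT ND. These Apoa5 groups lay apart, each with an SD of 0.02, and 18.1% of all genes did not overlap in this comparison. The test uses the spread of all 6 groups and of other genes, and the difference of 0.50 did not pass (SE 0.16, adjusted p = 0.123). Without WT HFD replicate 1 and without TG HFD replicate 2, a setting chosen after seeing the data, Apoa5 passed (adjusted p = 0.0302). With the clock score, defined below, in the fit the Apoa5 difference was 0.16 (SE 0.34, adjusted p = 0.986). The scores of KO ND and WT ND lay apart, so this fit separates score and genotype poorly. Apoc3 differed by 0.22 (95% interval 0.00 to 0.44, adjusted p = 0.37) and Apoa1 by -0.23 (-0.53 to 0.08, adjusted p = 0.57). The Apom call was lost without WT ND replicate 1, WT ND replicate 3 or KO ND replicate 2 (highest adjusted p = 0.077), and the Apoa4 call was not lost without any 1 array (highest adjusted p = 0.00946). This comparison and the WT diet comparison share the WT ND arrays.

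On HFD, KO and WT livers were not told apart by any of the 10 genes. No gene passed by limma, against 0.338% of all genes called, and 1 had an unadjusted p under 0.05, beside 8.32% of all genes. Apoa4 differed by -0.20 (95% interval -0.81 to 0.40, adjusted p = 0.921). Apom differed by 0.38 (0.00 to 0.76, adjusted p = 0.6), its arrays not overlapping, as for 13.2% of all genes. The intervals for the other 8 genes lay within -0.37 and 0.55. Of the 23 macrophage markers, 1 was higher in KO than in WT on HFD, Folr2, a call lost in 5 of 6 fits with 1 array left out. The list median was 0.44, and 10 of the markers had an unadjusted p under 0.05. The part of those cells in these values was not tested.

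TG livers differed from WT in Apoa4 and Apom on HFD and in none of the 10 genes on ND. On ND no gene passed by limma, against 1.3% of all genes called, and 2 had an unadjusted p under 0.05, beside 9.97% of all genes. Apoa4 there differed by -0.69 (95% interval -1.29 to -0.09, adjusted p = 0.392), every TG array lying below every WT array. Of all genes, 15.8% did not overlap between these groups. On HFD, Apoa4 was lower in TG by 1.41 on the log2 scale (a difference of -1.41, SE 0.27, adjusted p = 0.00546), or 0.376 of WT, and Apom was 1.90-fold higher (log2 difference 0.92, SE 0.17, adjusted p = 0.00428). Neither overlapped, as for 12.3% of all genes, and 2 of 10 called stood against 3.57% of all genes called. The Apoa4 and Apom calls held without any 1 array (highest adjusted p = 0.0323 and 0.0285). The Apom call was lost with only the 7 arrays compared in the fit (adjusted p = 0.0668) and with WT HFD replicate 1 and TG HFD replicate 2 both left out (difference 0.70, adjusted p = 0.0506). Macrophage markers were higher in TG as well, by a median of 1.21 over the list on HFD, and their part in these differences was not tested. Whether the TG difference itself changes with diet is the TG interaction given above, which neither gene passed.

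HDL and receptor-binding proteins gave smaller differences between TG and WT on HFD. Apoa1 read 8.92, 9.66 and 9.48 in WT HFD and 9.78, 9.90, 9.91 and 9.64 in TG HFD. These overlapped by 1 array of each group, and the difference of 0.46 did not pass (SE 0.14, adjusted p = 0.0741). Without WT HFD replicate 1, the lowest array, the difference was 0.24 (adjusted p = 0.35), and without WT HFD replicate 2 it was 0.61 and passed (adjusted p = 0.0208). With genes below a mean of 2 left out it passed (adjusted p = 0.036), as it did with a trend and robust prior (adjusted p = 0.0278). Apoe is the receptor ligand on remnant particles and also a product of macrophages. It read 8.73, 8.04, 8.89 and 8.85 in TG HFD and 9.00, 9.00 and 9.17 in WT HFD, without overlap, as for 12.3% of all genes. The difference of -0.43 (95% interval -0.75 to -0.11, adjusted p = 0.141) did not pass, and without TG HFD replicate 2, which lay far below the rest, it was -0.24. On ND, Apoe differed by -0.06 between TG and WT (-0.40 to 0.28, adjusted p = 0.964). Apoe had the identical value of 8.89276 in WT ND replicate 2, KO ND replicates 1 and 3 and TG ND replicate 2. The reason for these ties was not tested. Macrophage markers were higher in TG on both diets, and the part of those cells in the Apoe values was not tested.

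Between KO and TG on ND 4 of the 10 genes passed, where 4.2% of all genes were called. Apoa4 was 5.76-fold higher in KO ND than in TG ND (log2 difference 2.53, SE 0.29, adjusted p = 4.1e-05) and Apom was lower by 0.80 (a difference of -0.80, SE 0.18, adjusted p = 0.0138). Apoa2, which with Apoa1 makes up HDL, read 10.22, 10.12 and 9.82 in KO ND and 9.61, 9.42 and 9.57 in TG ND, a difference of 0.52 (SE 0.12, adjusted p = 0.014). Apoa5 read 8.49, 8.78 and 8.76 in TG ND, below all the KO ND arrays, a difference of 0.61 (SE 0.16, adjusted p = 0.0363). In this comparison the arrays of 6 of the 10 genes and of 21.1% of all genes did not overlap. The Apoa4 call did not depend on any 1 array (highest adjusted p = 0.000536). The others did: Apoa5 lost its call without any 1 of the 6 arrays (highest adjusted p = 0.166) and with arrays centred on their medians (adjusted p = 0.0508), Apoa2 without KO ND replicate 1, KO ND replicate 2 or TG ND replicate 2 (highest adjusted p = 0.0751), and Apom without KO ND replicate 2 or TG ND replicate 2 (highest adjusted p = 0.0744). Apoa2 also missed the threshold with only these 6 arrays in the fit (adjusted p = 0.0997). With the clock score in the fit Apoa5 differed by 0.20 (SE 0.40, adjusted p = 0.993) and Apoa2 by 0.84 (SE 0.29, adjusted p = 0.695). The scores of KO ND and TG ND also lay apart, with the same limit. Of the 23 macrophage markers 11 were lower in KO than in TG on ND (list median -0.98) and 5 on HFD (list median -0.59), and their part in these results was not tested.

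On HFD only Apoa4 passed between KO and TG, 2.31-fold higher in KO (log2 difference 1.21, SE 0.27, adjusted p = 0.0204), where 2.35% of all genes were called. That call was lost in 4 of 7 fits with 1 array left out, without any of the 3 KO HFD arrays or without TG HFD replicate 1 (highest adjusted p = 0.101), and with only the 7 arrays compared (adjusted p = 0.0587). Apom differed by -0.54 (95% interval -0.90 to -0.19, adjusted p = 0.111), and passed without TG HFD replicate 4 (adjusted p = 0.0419). Apoa2 differed by 0.32 (0.09 to 0.56, adjusted p = 0.153), Apoe by 0.40 (0.08 to 0.72, adjusted p = 0.222) and Apoc2 by 0.37 (0.07 to 0.67, adjusted p = 0.238). The arrays of each of these 4 genes did not overlap between KO and TG. The Apoe difference was 0.20 without TG HFD replicate 2. Of all genes, 12.1% did not overlap in this comparison.

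Apob, the structural protein of VLDL, did not pass in any comparison and hardly varied: it lay between 11.35 and 11.49 in all 19 arrays, and its largest difference was 0.02 (95% interval -0.15 to 0.19) between diets in TG. Its mean was 1.10 below the highest value in the whole table, and whether its probe set was near saturation was not tested. Apoc1, which inhibits lipid transfer and remnant uptake, lay between 10.17 and 10.75, with no difference beyond 0.21 in size. Apoc3 lay between 6.60 and 7.07. Neither Apoc1 nor Apoc3 passed in any comparison. Counting the probe set annotated to both Apoc4 and Apoc2, which was kept out of the gene results, no comparison passed there either, its largest difference being 0.34 (adjusted p = 0.416) between KO and TG on HFD. With diet this shared probe set differed by -0.12 in WT, 0.08 in KO and -0.12 in TG. The probe set of Apoc2 alone differed by 0.34, 0.60 and 0.33, so the 2 did not move alike. Over 110 tests of the 10 genes, 14 passed, 7 of them in Apoa4 and 5 in Apom.

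**Figure D3:**
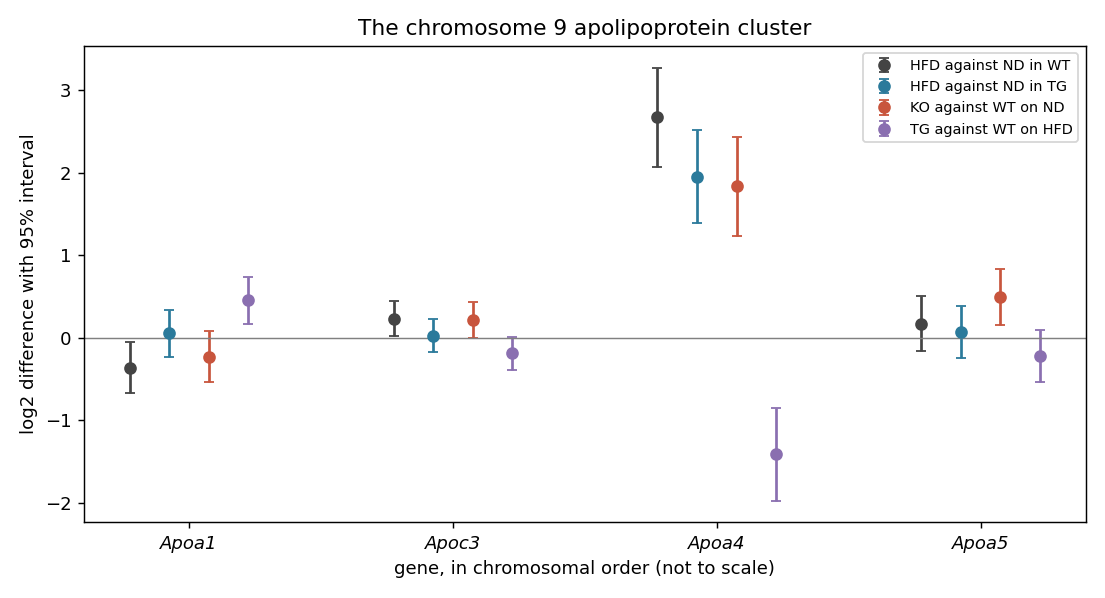
Log2 differences with their 95% intervals are drawn for the 4 genes of the chromosome 9 cluster in chromosomal order, for the WT and TG diet comparisons, KO against WT on ND and TG against WT on HFD. Apoa4 moves by 2.67, 1.95, 1.83 and -1.41 in these comparisons, while its neighbours stay within 0.50 in size.

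Of the chromosome 9 cluster, Apoa4 alone passed in the comparisons of diets and in those with WT. Beside the Apoa4 difference of 2.67 with diet in WT, Apoc3 differed by 0.23, Apoa5 by 0.17 and Apoa1 by -0.36, none past the threshold. Between KO and TG on ND, Apoa5 passed as well, by 0.61 against 2.53 for Apoa4. Differences between neighbouring genes were not tested against one another. On chromosome 7, Apoc2, Apoc1 and Apoe passed in none of the 11 comparisons.

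Genes outside the 10 were read from lists of the lipoprotein pathway. The list counts that follow stand against the shares of all genes called, which were 1.32%, 0.803% and 0.906% with diet in WT, KO and TG, 2.98% for KO against WT on ND, 1.3% and 3.57% for TG against WT on ND and HFD, 4.2% for KO against TG on ND and 0.221% for the TG interaction. Of 21 measured other proteins borne on lipoproteins, 1 passed with diet in WT, Pltp, the phospholipid transfer protein, which was higher on HFD by 1.81 (SE 0.36, adjusted p = 0.0142). Saa3, an acute-phase apolipoprotein, was higher in TG than in WT on ND by 2.02 (SE 0.41, adjusted p = 0.0165), and Apol9b by 0.99 (adjusted p = 0.0192) and Apol9a by 1.31 (adjusted p = 0.0442) in TG on HFD. Apol9a and Apol9b are near-identical copies, so their probes may not separate them. These calls each depended on single arrays: Pltp lost it in 3 of 6 fits with 1 array left out, Saa3 in 4 of 6, Apol9b in 3 of 7 and Apol9a in 5 of 7. Median differences of the list ran from -0.09 (TG interaction) to 0.19 (KO against WT on ND), beside 0.00 over all genes.

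Among 24 measured genes of assembly, secretion and remodelling of lipoproteins, 2 passed with diet in WT, 1 in each direction: Pltp, above, and Sort1, a sorting receptor for Apob, which fell by 1.23 (SE 0.20, adjusted p = 0.00251). On ND, 3 were higher and 1 lower in KO than in WT: Ces1g, a carboxylesterase, by 2.10 (adjusted p = 0.00455), Lipg, endothelial lipase, by 1.64 (adjusted p = 0.0172), Dgat2, which makes triglyceride, by 0.48 (adjusted p = 0.0221), and Sort1, which fell by 0.82 (adjusted p = 0.0306). In TG against WT, Abcg1, a cholesterol exporter, was higher by 1.63 on ND (adjusted p = 0.000353) and by 0.88 on HFD (adjusted p = 0.0194). Ces1g was also higher in TG than in WT on ND, by 2.16 (adjusted p = 0.00585), so it was lower in WT ND than in both other genotypes. Apobec1, the enzyme that edits Apob mRNA, was higher in TG on HFD by 0.93 (adjusted p = 0.00995) and Lpl, lipoprotein lipase, by 1.67 (adjusted p = 0.0232). Abcg1 and Lpl are also made by macrophages, whose markers were higher in the same TG livers, and the part of those cells was not tested. The Sort1 diet call and the Ces1g and Abcg1 calls on ND held without any 1 array. The Lipg, Dgat2 and Sort1 calls in KO against WT were each lost in 4 of 6 such fits. With the clock score in the fit these differences were 0.61 for Lipg and -1.24 for Sort1, neither past the threshold (adjusted p = 0.959 and 0.567). Single arrays also decided the HFD calls of Apobec1, lost in 1 of 7 fits, Abcg1, in 2, and Lpl, in 3. Mttp, which loads lipid onto Apob, passed in no comparison, with a largest difference of 0.37 (95% interval 0.11 to 0.63, adjusted p = 0.117) between KO and TG on ND.

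Among 19 measured receptors and uptake genes, Vldlr, the VLDL receptor, was higher on HFD in WT by 2.01 (SE 0.30, adjusted p = 0.00134), and it was the 1 gene of the list to pass the TG interaction (-2.47, SE 0.41, adjusted p = 0.0152). Cd36, a fatty acid translocase, was lower in TG than in WT, with differences of -1.30 on ND (adjusted p = 0.0142) and -2.31 on HFD (adjusted p = 3.17e-05). Lsr, a lipolysis-stimulated receptor, was higher in TG by 0.71 on ND (adjusted p = 0.0054) and 0.66 on HFD (adjusted p = 0.00347). In KO against WT on ND, 2 were higher and 2 lower: Vldlr by 1.40 and Cd36 by 1.13, against Lrp5 at -0.60 and Scarb1, the HDL receptor, at -0.49 (adjusted p = 0.015, 0.0207, 0.025 and 0.0444). Each of these 4 was lost in 3 to 5 of 6 fits with 1 array left out, Cd36 in TG against WT on ND in 4 of 6, and the Vldlr interaction in 2 of 13. The diet call of Vldlr in WT, both Lsr calls and the HFD call of Cd36 held without any 1 array. With the clock score in the fit, Vldlr differed by 1.27 with diet in WT (adjusted p = 0.997) and by 0.74 in KO against WT on ND (adjusted p = 0.939).

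Of 28 measured regulators of apolipoprotein genes, none passed with diet in WT or in KO by limma, where 6 and 10 had an unadjusted p under 0.05. Of all genes, 11.2% and 11.3% were under that unadjusted threshold. Foxo1 and Ppargc1b were the 2 that were higher on HFD in TG, by 0.67 (adjusted p = 0.0382) and 1.17 (adjusted p = 0.00277). In KO against WT on ND, 1 was higher and 4 lower, among them Cebpb at 1.50 (adjusted p = 0.0119) and Nr1d1, a repressor of the circadian clock, at -2.30 (adjusted p = 0.00278). Cebpa was lower in TG than in WT on HFD (-0.57, adjusted p = 0.0124). Hnf4a, Nr1h3 and Creb3l3, known activators of apolipoprotein genes, passed in no comparison: with diet in WT they differed by -0.19 (95% interval -0.45 to 0.07), 0.15 (-0.04 to 0.34) and -0.10 (-0.37 to 0.18). Foxo1 lost its call in 5 of 7 fits with 1 array left out, Cebpb in 3 of 6 and Cebpa in 1 of 7. Ppargc1b kept its call in these fits but turned to -0.24 (adjusted p = 0.998) with the clock score in the fit. In KO against TG on ND, 5 were higher and 2 lower (Ppargc1b, Nr1d1, Srebf2, Foxo1, Ppara, Ppargc1a and Cebpb, in order of p). Ppara was higher there by 0.84 (SE 0.19, adjusted p = 0.0163), a call lost in 3 of 6 fits with 1 array left out. With the clock score in the fit the Ppara difference was 0.26 (adjusted p = 0.993). Of the 18 intestinal markers, Fabp2, a fatty acid binding protein also present in liver at 6.56 to 8.72, was higher in KO than in WT on ND by 0.95 (adjusted p = 0.0472) and lower in TG than in WT on HFD (means of 7.39 and 8.39, adjusted p = 0.0215), the directions of Apoa4. The first of these Fabp2 calls was lost without any 1 of the 6 arrays, and its difference was 0.53 (adjusted p = 0.952) with the clock score, and the second in 3 of 7 fits.

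Targets of Creb3l3 and Ppara, transcription factors that also act on Apoa4, were read from a list of 15 measured genes outside the 10. With diet in WT 3 were higher and none lower, in KO none higher and 1 lower, and in TG 1 higher and none lower. In KO against WT on ND 1 was higher, Cidec, and none lower. In TG against WT on HFD none were higher and 3 lower, with a list median of -0.67 beside 0.00 over all genes. Cidec, a lipid droplet protein singled out after its values were seen, averaged 2.51 ± 0.41 (SD, n = 3) in WT ND, 6.01 ± 0.78 (n = 3) in KO ND, 1.93 ± 0.50 (n = 3) in TG ND, 5.40 ± 1.16 (n = 3) in WT HFD, 4.47 ± 1.58 (n = 3) in KO HFD and 2.63 ± 0.49 (n = 4) in TG HFD. It was higher in KO than in WT on ND by 3.50 (SE 0.63, adjusted p = 0.0037), a call that held without any 1 array. Cidec was also higher on HFD in WT by 2.90 (SE 0.63, adjusted p = 0.0276), a call lost in 5 of 6 fits with 1 array left out. With the clock score in the fit these differences were 3.88 (adjusted p = 0.597) and 3.32 (adjusted p = 0.997), neither past the threshold. Of 16 measured genes of cholesterol synthesis, none passed with diet by limma, and 6 were lower in KO than in TG on ND. With diet, 6 in WT, 6 in KO and 2 in TG had an unadjusted p under 0.05, beside 11.2%, 11.3% and 10.1% of all genes. Among markers of other cells, none of 9 exocrine pancreas genes and none of 6 blood cell genes passed in any comparison by limma. At an unadjusted p under 0.05 stood 0 of 99 and 4 of 66 tests, beside 7.87% to 15.2% of all genes by comparison. By contrast 4 of 11 adipocyte genes were higher in KO than in WT on ND (Thrsp, Cidec, Plin4 and Cidea). All 4 are lipid droplet or lipogenic genes that liver can also express, and which cells they came from was not tested. Of 17 endothelial and stellate cell genes, 1 was higher in TG than in WT on ND and 2 on HFD, Reln in both.

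Values most like those of Apoa4 over the 19 arrays, among 6617 genes with a mean of at least 4, were those of Slc16a7 (Pearson r = 0.898), Atr (0.890) and Serpina6 (0.889). Slc16a7, a monocarboxylate transporter, averaged 7.38 in WT ND, 8.13 in KO ND, 7.43 in TG ND, 8.36 in WT HFD, 8.47 in KO HFD and 7.96 in TG HFD. For Apom the most alike were AI182371 (0.867), the chemokine Ccl9 (0.857) and the interferon receptor subunit Ifnar2 (0.854). For Apoc2 they were Tnfrsf1a (0.836), Dusp6 (0.821) and Tmem184b (0.819). The points share the 6 groups and were picked as the highest of many, so these values are descriptions.

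Clock genes also differed between several of these groups. The averaged level of 9 evening-peaking clock genes less that of 5 morning-peaking ones served as a clock score for each liver. It was between -1.98 and -0.11 in WT ND and between -1.92 and -1.11 in TG ND. In KO ND it was 1.46 to 1.83, and in HFD livers it was 1.88 to 2.12 in WT, 1.99 to 2.40 in KO and 1.48 to 2.25 in TG. KO ND thus stood near the HFD groups in this score. Of the 9 evening genes 7 were higher on HFD in WT, 8 in TG and none in KO by limma. In KO, 4 had an unadjusted p under 0.05 with diet, beside 11.3% of all genes. On ND, 7 evening genes were higher and 1 lower in KO than in WT.

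**Figure D4:**
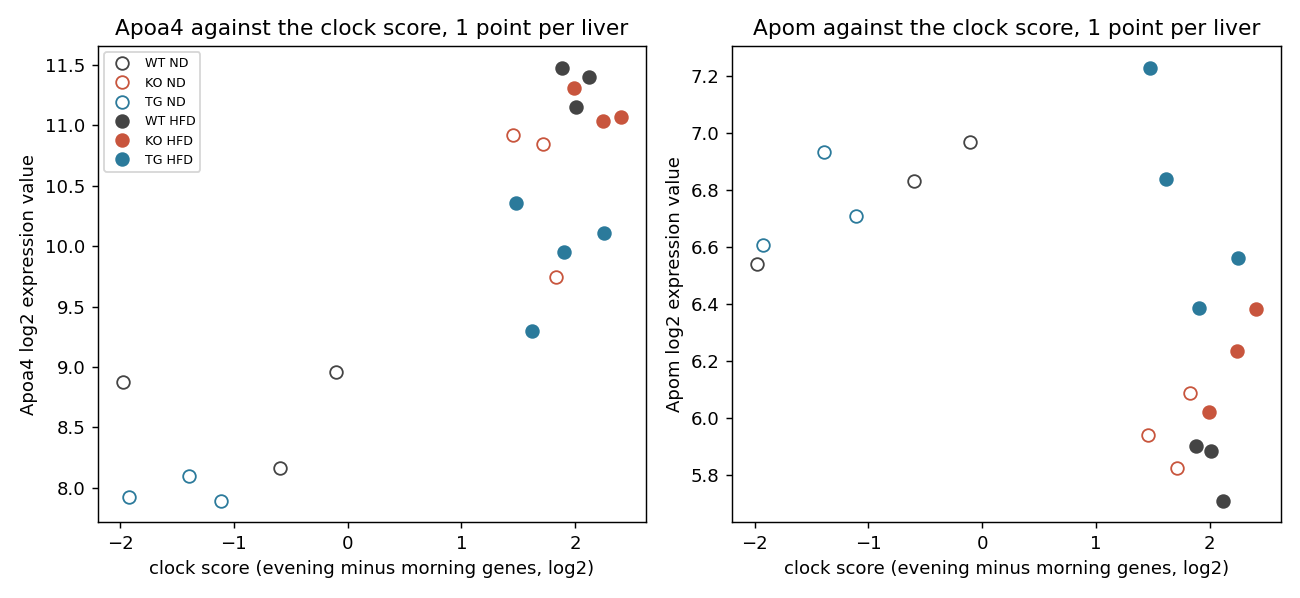
The log2 values of Apoa4 (left) and Apom (right) are plotted against the clock score of the same liver, 1 point per array, open for ND and filled for HFD. WT ND and TG ND lie at scores from -1.98 to -0.11 and all other groups at 1.46 to 2.40, and among the latter the TG HFD points have Apoa4 at 9.30 to 10.36 and Apom at 6.39 to 7.23.

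With the score as a covariate, the Apoa4 differences were as large or larger but had wider errors, and they no longer passed where the scores of the groups lay apart. They were 3.05 with diet in WT (SE 0.69, adjusted p = 0.408), 2.38 with diet in TG (SE 0.76, adjusted p = 0.998) and 2.16 in KO against WT on ND (SE 0.62, adjusted p = 0.371). The Apom differences were -1.23 with diet in WT (adjusted p = 0.897) and -1.08 in KO against WT on ND (adjusted p = 0.597). Between TG and WT on HFD, where the scores overlap, Apoa4 (-1.44, adjusted p = 0.0076) and Apom (0.94, adjusted p = 0.00592) passed with the score in the fit. Within groups, no gene of the 10 followed the score past the threshold (adjusted p = 0.999 for each). The score varied little within most groups, so this fit had little power to find such a slope. For Apoa4 the slope was -0.13 on the log2 scale per unit of score (SE 0.22). The hour of collection is not given, and its part in the diet results and in the ND results was not tested.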

How the data were processed

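RNA from 19 whole livers was hybridised to 1 Affymetrix array each. Values deposited by the authors are log2 intensities summarised per probe set and already normalized between arrays. Per the submitters' processing notes, limma, affy and RMA were used, with no role or version, and the log base and RMA were inferred from these names and the range of the values. Array medians lay between 0.98 and 1.07, and arrays have no read depth, so precision is limited by the number of livers. Of 41345 probe sets, 23521 had 1 symbol and were used, 1814 had several and 16010 had none here. The probe set with the highest mean stood for each of 1082 symbols with more than 1, leaving 22180 genes with no filter on dim ones.

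All arrays entered 1 model of 6 group means in limma 3.58.1 (R 4.3.3, lmFit and eBayes, 13 residual degrees of freedom), with two-sided p-values adjusted by Benjamini-Hochberg over all genes within each of 9 comparisons and 2 interactions. A gene passed, or was called, at an adjusted p under 0.05. SE is the moderated standard error, intervals are 95% and not adjusted, and SD is between arrays of a group. The procedure was tested on simulated data. Other settings tried were the mean of all probe sets of a gene, every probe set tested on its own, a minimum mean of 2, repeated quantile normalization, centring on array medians, a trended robust prior, array weights, the clock score as covariate, only the arrays compared, and each array left out in turn.

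The members and lists were chosen with earlier results of these data known. All 10 members are named. Genes of the 4 pathway lists are named from the called genes with the smallest p, at most 4 per list and comparison, with Mttp, Lpl, Creb3l3, Hnf4a, Nr1h3 and Ppara whatever their value, and the genes most alike by Pearson r for the 3 members with the widest span. Fabp2, Kcp and the genes named from other lists were added after their values were seen.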

Additional observations from a re-analysis of the deposited data

Results flagged for a closer look

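In the 4 livers of TG on HFD, 2 of the 10 genes had 1 array far from the other 3. Apoa5 read 8.26 in replicate 2, with 8.87 to 8.91 in the others, a gap of 0.936 of the group's whole range. Apoc2 read 6.49 in replicate 1, with 6.88 to 6.94 in the others, a gap of 0.882. Both gaps passed Dixon's 95% critical value for 4 arrays, which chance alone passes in about 5% of groups. Apoe read 8.04 in replicate 2, a gap of 0.817, which is under that value. Apoa5 and Apoe were thus both lowest in the same liver, replicate 2, which also had the highest Apom value of its group, 7.23.

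The diet effect of 2 genes differed between KO and WT by a test of the difference itself. The interaction was -2.04 for Apoa4 (SE 0.40, adjusted p = 0.0215, limma) and 1.21 for Apom (SE 0.25, adjusted p = 0.0305). These are the interactions given above, with calls lost in 7 of 12 (Apoa4) and 8 of 12 (Apom) fits with 1 array left out. With the clock score in the fit neither passed (adjusted p = 0.404 for Apoa4 and 0.416 for Apom). Apoa4 was higher on HFD by 2.67 in WT and by 0.63 in KO, the latter not past the threshold, and KO ND already stood at 10.50 beside 8.67 in WT ND.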

How the results depend on the processing

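None of the 14 called differences changed sign in any of the 10 other settings or with any 1 of the 19 arrays left out. The number of the 10 genes called moved by over 1.5 times in the cases below. With the clock score as a covariate it was 0 for diet in WT, diet in TG, KO against WT on ND, KO against TG on ND and the KO interaction. For diet in KO it was 1 (Apoc2) with dim genes left out and 1 with the trended robust prior. For TG against WT on HFD it was 1 (Apoa4) with only the compared arrays and 1 with WT HFD replicate 1 and TG HFD replicate 2 both left out, a setting chosen after seeing the data. For KO against TG on HFD it was 0 with only the compared arrays. Smaller moves were from 2 to 3 for TG against WT on HFD with dim genes left out and with the trended robust prior (Apoa1 added), from 2 to 3 for KO against WT on ND with both arrays left out (Apoa5 added), and from 4 to 3 for KO against TG on ND with centred arrays (without Apoa5) and with only the compared arrays (without Apoa2). With 1 array left out, the count ran from 1 to 2 for diet in WT, 0 to 1 for diet in KO, 1 to 2 for KO against WT on ND, 2 to 3 for TG against WT on HFD, 1 to 3 for KO against TG on ND, 0 to 2 for KO against TG on HFD and 0 to 2 for the KO interaction. Over all genes, the clock covariate took the count of calls from 293 to 5 for diet in WT, from 201 to 0 for diet in TG, from 661 to 16 for KO against WT on ND, from 931 to 2 for KO against TG on ND and from 183 to 7 for the KO interaction. With 1 array left out, the lowest counts over all genes were 166 for diet in WT (without WT HFD replicate 1), 27 for diet in KO (without KO ND replicate 2), 73 for diet in TG (without TG ND replicate 1) and 401 for TG against WT on HFD (without WT HFD replicate 1). No paired analysis was possible because the labels give no replicate numbers shared between groups. Of all genes, 56.5% had a mean value below 2, where background limits what can be measured, but none of the 10 lay there.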
